A study of Mus musculus with 15 samples.

Results

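CD8 T cells of wild-type (WT) OT-I mice were compared before and after 3 days of stimulation with their peptide. The CD8 T cells of OT-I mice bear a transgenic receptor for OVA257-264, a peptide of chicken ovalbumin presented on the class I molecule H-2Kb. All mice were C57BL/6 and 8 to 10 weeks old. The day 0 libraries were made from cells left untreated, and the day 3 libraries from splenocytes stimulated with the peptide for 3 days. CD8+ T cells were then enriched from whole spleen cells with a magnetic bead kit, and their poly(A) RNA was sequenced. The comparison rests on 4 of the 8 libraries of the series, 2 at day 0 (libraries 3 and 4) and 2 at day 3 (libraries 1 and 2), chosen by genotype and day, and on 7 of its 15 sequencing lanes. The other 4 libraries came from Susd2-/- OT-I mice on the same days and entered the fit to help estimate the spread between libraries. No WT cells cultured for 3 days without peptide were analysed here, so effects of the peptide and of culture cannot be told apart. The labels do not tell whether the mice behind the libraries of a group were different animals, and the p-values may then cover technical spread only.

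A naive CD8 T cell is a small resting cell that recirculates between blood and lymphoid organs and lives on interleukin-7 and weak receptor signals. When its receptor binds peptide on an antigen-presenting cell and costimulation is given, the cell enters the division cycle, enlarges, switches its fuel use to glycolysis and makes the granules and cytokines of a killer cell. By the time examined here, such a cell has typically left the early wave of receptor-induced transcription and is dividing rapidly under the control of interleukin-2.

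The WT libraries held 27750718 to 33385488 counts in all, and between 18585 and 20404 genes had at least 1 count. The libraries of day 0 resembled each other more closely than those of day 3, with a coefficient of variation between libraries of 4.38% at day 0 and 10.6% at day 3. Between the day 0 libraries the chi-square over its degrees of freedom was 3.37, little more than the 3.05 to 3.14 found between lanes of the same WT library, so the comparison was repeated with day 0 counted as 1 library. Rises and falls stated below that this ended are named with them. Genes with 2 counts outnumbered genes with 1 count by 1.69 to 1.93 times, and a count is therefore not a single molecule. Susd2, the gene deleted in the other libraries, had counts of 90 and 80 at day 0 and 16 and 10 at day 3 in the WT libraries and was at or below 0.103 CPM in the 4 Susd2-/- libraries. Levels are given as CPM, the count of a gene relative to the size of its library, after scaling by trimmed mean of M-values (TMM), a value for each library, and describe shares of a library, not amounts per cell. Because these are bulk samples, fewer cells of a type and less RNA per cell cannot be told apart.

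Most of the transcriptome differed between the days. Of 16057 genes tested, 5805 (36.2%) were higher at day 3 and 6268 (39.0%) lower, at an adjusted p under 0.05 in edgeR's quasi-likelihood test. Counts of called genes in the lists below are to be read beside these shares. At least 2-fold differences were found for 3625 genes that rose (22.6%) and 4348 that fell (27.1%), and 966 rose and 1544 fell by at least 8-fold. The genes that rose at least 2-fold held 12.8% of all counts in each day 0 library, and 42.6% and 41.5% in the day 3 libraries. Those that fell at least 2-fold went from 28.3% to 6.78% and 7.31%. The median log2 fold change over all genes tested was -0.14, and it moved by -0.18 when libraries were scaled by their totals alone. Values below are log2 fold changes, day 3 over day 0, with the standard error of the fit after ±, and they would be lower by about that shift under the other scaling. Where leaving out a library moved the fold of a called gene by over 1.5 times, the value without that library follows after "or". Where the libraries left on a day then hold no count, that value depends on the fit and bounds nothing. Counting the day 0 libraries as 1 gave 5362 higher and 5927 lower genes. Both day 3 libraries lay above both day 0 libraries for 5801 of the 5805 genes called higher. They lay below both for 6262 of the 6268 called lower, so an absence of overlap stated below adds little to a call.

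**Figure D1:**
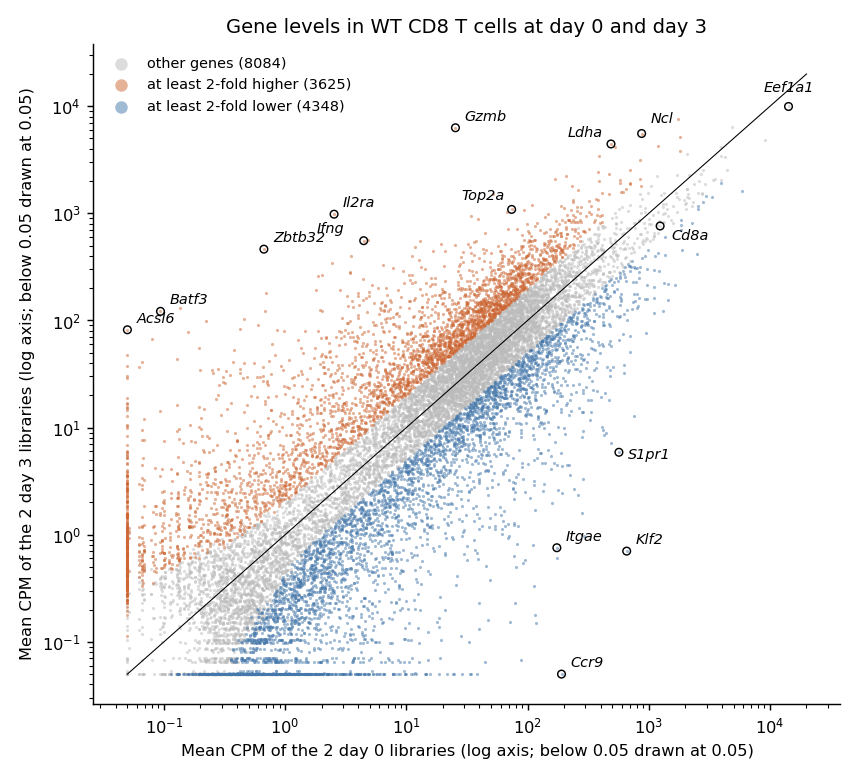
Mean CPM of each of the 16057 genes tested in the 2 day 0 libraries (horizontal, log axis) and the 2 day 3 libraries (vertical, log axis). Each point is a gene, orange where it was called at least 2-fold higher (3625 genes) and blue where called at least 2-fold lower (4348 genes), and the line marks equal levels. Gzmb and Il2ra stand far above the line, and Ccr9, drawn at 0.05 CPM because it had no count at day 3, far below it.

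The largest rises were in genes with almost no transcript in resting cells. Il2ra, the alpha chain of the high-affinity interleukin-2 receptor (GRCm38 chromosome 2, 11642807 to 11693193, plus strand), stood at 2.78 and 2.29 CPM at day 0 and 972 and 992 CPM at day 3. Both day 3 libraries lay far above both day 0 libraries, and the log2 fold change was 8.59 ± 0.11 (adjusted p = 2.16e-20). Zbtb32, a zinc finger repressor induced in activated lymphocytes, went from 0.687 and 0.649 to 456 and 470.2 CPM (9.43 ± 0.13). Batf3, an AP-1 family factor best known from dendritic cells, went from 0.187 and 0 to 113 and 130.4 CPM (10.22 ± 0.27, or 14.96 without library 3 and 9.32 without library 4). No overlap between the days was seen for these genes, but the rule that named the largest rises required that. Others of the largest rises were Bcat1, which transaminates branched-chain amino acids (9.93, or 8.91 without library 3 and 15.09 without library 4), the serine protease inhibitor Serpine2 (8.87, or 10.11 without library 3 and 8.27 without library 4), the phosphatase Ptpn5 (10.00, or 9.03 without library 3 and 13.28 without library 4), the retinoic acid-binding protein Crabp2 (9.05, or 13.23 without library 3 and 8.16 without library 4), the regulator of G protein signalling Rgs16 (7.76, or 8.98 without library 3 and 7.17 without library 4) and Tnip3, an inhibitor of NF-kappa B signalling (8.36, or 9.27 without library 3). In all, 320 genes had no count in either day 0 library and at least 10 counts at day 3. Acsl6, a long-chain acyl-CoA synthetase (chromosome 11, 54303798 to 54364756, plus strand), was the most abundant of these, with 2614 and 2242 counts in the day 3 libraries, at least 1675-fold higher when day 0 is set to 3 counts over the group. The kinase gene Dclk1 was at least 975-fold higher, the glutamate transporter gene Slc1a2 at least 313-fold, Pla1a, a phosphatidylserine phospholipase, at least 301-fold, and the cytokine gene Il3 at least 261-fold. Because a count is not a single molecule, the floor of 3 counts is a convention. These folds, and those given below for genes silent on a day, are not strict bounds.

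Many of the largest falls were in genes well expressed in resting cells and near 0 at day 3. Ccr9, the receptor for the gut chemokine CCL25 (chromosome 9, 123678439 to 123784330, plus strand), had 6047 and 5627 counts at day 0 and no count at day 3, at least 3760.1-fold lower. Klf2, the transcription factor that maintains quiescence and the genes of egress from tissue (chromosome 8, 72319033 to 72321656, plus strand), stood at 654 and 661 CPM at day 0 and 0.840 and 0.566 CPM at day 3. The days were separated by a factor of 922 (-9.85 ± 0.13, adjusted p = 3.75e-20). Cd7, a lymphocyte surface glycoprotein, went from 119 and 114 to 0.162 and 0.142 CPM (-9.55), Itgae, the CD103 integrin chain that binds E-cadherin, from 175 and 173 to 0.840 and 0.672 CPM (-7.84), and Ampd1, adenosine monophosphate deaminase, from 34.7 and 32.5 to 0 and 0.0708 CPM (-9.80, or -8.81 without library 1 and -13.11 without library 2). There were 791 genes with at least 10 counts at day 0 and no count at day 3, among them Fcgrt, the neonatal Fc receptor (at least 672-fold lower), Lcn4 (at least 367-fold), Vcam1 (at least 225-fold) and Pdlim4 (at least 170.4-fold).

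Genes of the naive and quiescent state fell as a group. Of 41 genes tested, 36 were lower and 2 higher, with a median log2 fold change of -2.72 against -0.14 over all genes. Neither of the higher genes held with day 0 counted as 1 library. All 11 receptors of homing and survival fell. S1pr1, the sphingosine 1-phosphate receptor by which T cells leave lymph nodes, stood at 569 and 565 CPM at day 0 and 5.72 and 6.05 CPM at day 3 (-6.59 ± 0.08). The chemokine receptor gene Ccr7 fell less, from 471 and 468 to 215 and 253 CPM (-1.01 ± 0.07). In both genes the day 3 libraries lay below both day 0 libraries. Il7r, the interleukin-7 receptor chain, fell from 602 and 621 to 71.9 and 76.2 CPM (-3.05).

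Among 14 transcription factors of naive cells 10 were lower. Tcf7, which encodes TCF-1, a factor of naive and memory cells, stood at 1104 and 1105 CPM at day 0 and 111 and 125 CPM at day 3 (-3.22 ± 0.07), and its relative Lef1 fell with a log2 fold change of -2.72. Tsc22d3, a glucocorticoid-induced factor, fell by more, from 497 and 483 to 6.52 and 7.86 CPM (-6.09), as did Klf3 (-4.80). Foxo1, which drives Klf2 and Il7r, fell from 216 and 216 to 68.4 and 65.7 CPM (-1.69). Bach2, a repressor of effector genes, did not pass the test, at 63.3 and 64.8 CPM at day 0 and 63.2 and 56.4 CPM at day 3. Of 16 genes that restrain growth or division, 15 fell and none rose. Cdkn1b, the cyclin-dependent kinase inhibitor p27, went from 277 and 294 to 22.2 and 23.1 CPM (-3.65 ± 0.07). Txnip, which lowers glucose uptake, went from 481 and 470.5 to 30.9 and 38.1 CPM (-3.79), and Pik3ip1, an inhibitor of phosphoinositide 3-kinase, from 186 and 195 to 2.81 and 5.98 CPM (-5.45, or -6.05 without library 2). Each of these brakes had both day 3 libraries below both day 0 libraries.

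**Figure D2:**
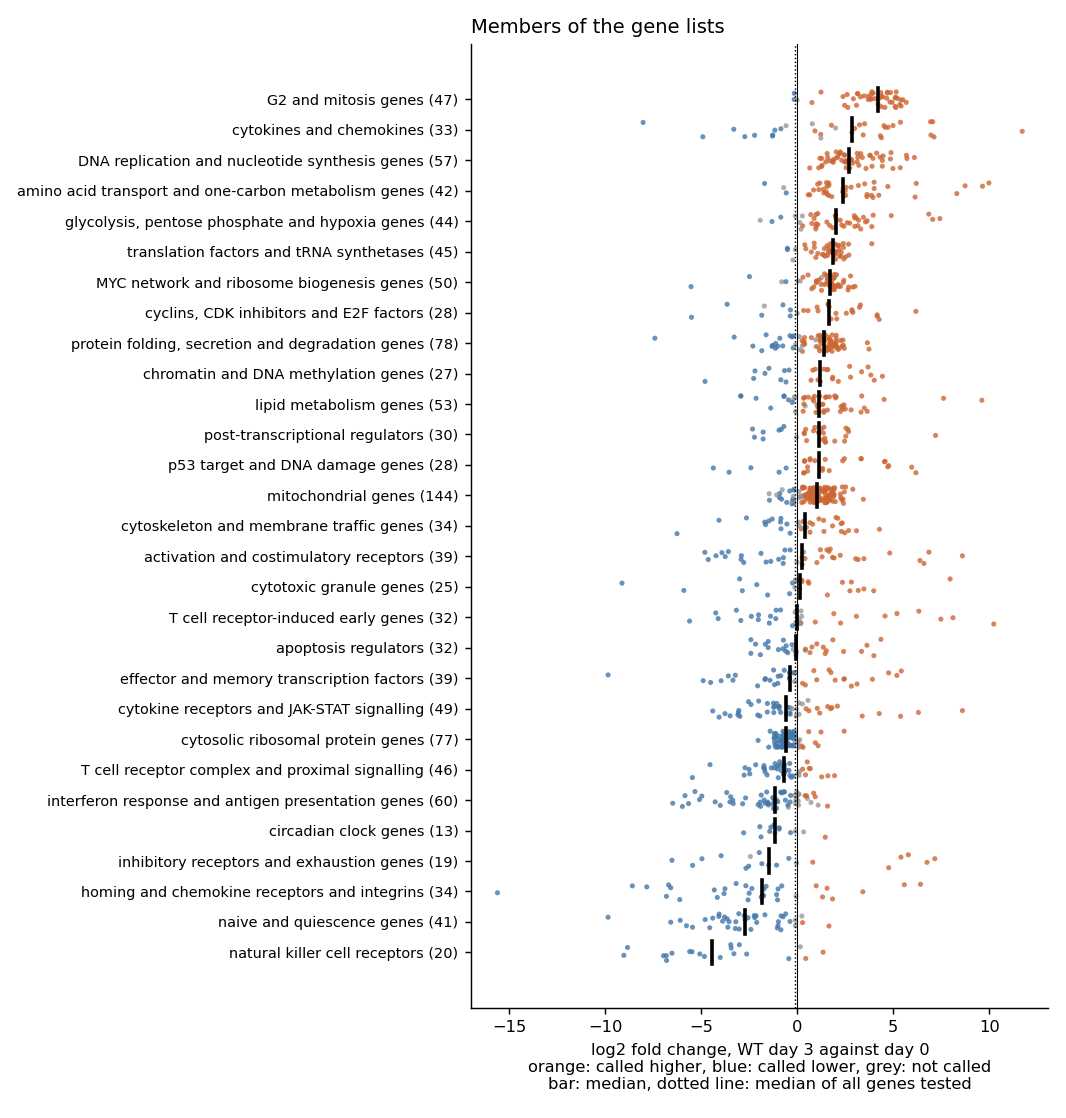
Log2 fold change of every tested member of 29 gene lists, ordered by list median, with the number of members tested in brackets. Each point is a gene, the bar is the list's median and the dotted line the median of all genes, -0.14. The lists of mitosis and replication genes stand highest, with medians of 4.20 and 2.68 on either side of the cytokine list, and natural killer cell receptors lowest, at -4.42.

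The machinery of the T cell receptor itself was lower at day 3. All 9 genes of the receptor and its coreceptors fell. Cd8a stood at 1225 and 1256 CPM at day 0 and 757 and 768 CPM at day 3 (-0.70 ± 0.06) and Cd8b1 at 978 and 971 CPM at day 0 and 296 and 313 CPM at day 3 (-1.68 ± 0.07). Per length of exon, Cd8b1 fell from 657 to 205 RPKM and Cd8a from 341 to 209.6 RPKM, so the beta chain's level went from above that of the alpha chain to about equal to it. Exon length merges all annotated exons of a gene and not those of the transcript made. Orders between genes by RPKM, here and below, are therefore approximate. Cd3e, a signalling chain of the complex, fell from 209.8 and 211 to 129 and 128 CPM (-0.71). Of 22 kinases and adaptors 18 fell and 3 rose. The larger falls were in Rasgrp2, an activator of RAP1 (from 422 and 414 to 8.66 and 10.3 CPM, -5.46), the TEC family kinase Txk (-4.54) and Rasgrp1, an activator of RAS (-2.72). Lck and Zap70, the kinases that act next to the receptor, fell (-0.67 and -0.22), the last of these not passing the test when either day 0 library was left out. Of 15 phosphatases and brakes 8 were lower and 5 higher, shares not far from those over all genes tested (39.0% and 36.2%). Cblb, a ubiquitin ligase that limits receptor signalling, rose from 83.2 and 89.3 to 319 and 341 CPM (1.94 ± 0.07), whereas Dgka, a diacylglycerol kinase of resting T cells, fell from 1098 and 1104 to 149.7 and 174 CPM (-2.77 ± 0.07).

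Of 32 genes that the receptor induces early 11 were higher and 14 lower, near the shares over all genes tested (36.2% and 39.0%). Fos, a subunit of AP-1, stood at 217 and 221 CPM at day 0 and 4.52 and 4.42 CPM at day 3 (-5.61 ± 0.09), and Jun at 168 and 172 CPM at day 0 and 39.5 and 44.3 CPM at day 3 (-2.02 ± 0.08). Both were lower in both day 3 libraries. Batf, a partner of IRF4, did not pass the test, at 40.9 and 39.9 CPM at day 0 and 46.2 and 45.1 CPM at day 3. The orphan nuclear receptor gene Nr4a3 rose from 13.3 and 13.3 to 333 and 296 CPM (4.56 ± 0.08) and Nr4a2 from 4.53 and 4.58 to 42.3 and 34.4 CPM (3.08 ± 0.14), with no overlap between days. Nr4a1 stood at 80.5 and 82.1 CPM at day 0 and 95.0 and 89.2 CPM at day 3, a difference of 0.18 ± 0.07 that lost its call when day 0 was counted as 1 library and had the opposite sign, near 0, under scaling by totals. Egr2 rose (1.90), and Egr1 did not pass the test (0.12). Among feedback inhibitors, Dusp4, a phosphatase of MAP kinases, rose from 4.12 and 2.73 to 264 and 289 CPM (6.32 ± 0.16). Tnfaip3, which encodes the NF-kappa B inhibitor A20, fell from 618 and 622 to 29.8 and 35.5 CPM (-4.25 ± 0.08), and Dusp1 fell from 149.6 and 152 to 7.95 and 9.45 CPM (-4.12). Spry1, an inhibitor of RAS signalling, rose (5.18).

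Receptors of activation and costimulation rose in 20 and fell in 17 of 39 genes, where of all genes tested 36.2% were higher and 39.0% lower. Cd44, the adhesion receptor that marks antigen-experienced cells, stood at 25.8 and 30.2 CPM at day 0 and 282 and 219.9 CPM at day 3 (3.17 ± 0.12). Tfrc, the transferrin receptor, stood at 112 and 106 CPM at day 0 and 1243 and 1166 CPM at day 3 (3.47 ± 0.08). Cd69, which is induced within hours of stimulation and retains cells in tissue, was lower at day 3, at 275 and 283 CPM at day 0 and 88.1 and 92.9 CPM at day 3 (-1.62 ± 0.06). In these 3 genes the days did not overlap. Tnfrsf9 and Tnfrsf4, the costimulatory receptors 4-1BB and OX40, rose from 4.75 and 4.99 to 499 and 622 CPM and from 2.81 and 4.00 to 256 and 309 CPM (6.85 and 6.38). Icos and Cd28 rose less (1.65 and 1.02), and Cd27 fell (-0.74). Cd80, better known as a ligand on antigen-presenting cells, rose from 0.719 and 0.991 to 79.1 and 85.2 CPM (6.59), and its relative Cd86 fell from 5.84 and 6.15 to 0.129 and 0.354 CPM (-4.64, or -5.47 without library 2). Fas, the death receptor, fell from 38.5 and 34.8 to 4.81 and 4.92 CPM (-2.91).

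Of 19 genes of inhibitory receptors and exhaustion 6 rose and 11 fell, where of all genes tested 36.2% were higher and 39.0% lower. Pdcd1, which encodes PD-1, stood at 1.62 and 1.95 CPM at day 0 and 191 and 193 CPM at day 3 (6.75 ± 0.14). Lag3, a receptor for class II molecules, stood at 2.31 and 2.53 CPM at day 0 and 282 and 409 CPM at day 3 (7.16 ± 0.25), and Ctla4 at 16.5 and 16.6 CPM at day 0 and 396 and 496 CPM at day 3 (4.75 ± 0.10). All 3 were higher in both day 3 libraries. Tigit rose by 5.39, or 6.07 without library 3. Havcr2, which encodes TIM-3, stayed below 1 CPM in every WT library and did not pass the test (-0.04), and Tox, a factor of exhausted cells, fell from 37.8 and 40.3 to 18.2 and 18.8 CPM (-1.08). Vsir, which encodes VISTA, fell from 480.4 and 469 to 26.3 and 34.4 CPM (-3.97), and Klrg1, a marker of short-lived effector cells, fell from 8.91 and 10.5 to 0 and 0.212 CPM (-6.52, or -5.48 without library 1 and -11.32 without library 2).

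Of 25 cytotoxic granule genes 12 rose and 8 fell, where of all genes tested 36.2% were higher and 39.0% lower. Gzmb, the protease that cleaves caspases in target cells (chromosome 14, 56258838 to 56262260, minus strand), stood at 24.8 and 26.0 CPM at day 0 and 6070.0 and 6522 CPM at day 3. Both day 3 libraries lay far above both day 0 libraries (7.95 ± 0.11, adjusted p = 3.44e-19). Gzma, a granzyme of other specificity, moved the opposite way, from 60.5 and 63.5 to 1.29 and 0.743 CPM (-5.91 ± 0.19). Per length of exon, Gzmb went from 17.7 to 4384 RPKM and Gzma from 61.6 to 1.01 RPKM, so their order reversed. Gzmc rose from very low levels (3.98), and Gzmk, with raw counts of 77 and 54 at day 0 and no count at day 3, fell. Prf1, which encodes the pore-forming protein perforin, rose from 56.9 and 60.8 to 270.1 and 329 CPM (2.35 ± 0.12). The death ligand gene Fasl rose from 5.78 and 5.77 to 34.3 and 42.6 CPM (2.73), while Tnfsf10, which encodes TRAIL, fell from 30.8 and 28.2 to 11.3 and 8.85 CPM (-1.55). Serpinb9, which protects the killer cell from its own granzyme B, rose from 31.8 and 33.4 to 310.3 and 276 CPM (3.17). Of 6 genes of granule release, 4 did not pass the test. Stx11, a fusion protein of the granule, was the 1 that rose (3.46).

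Genes of cytokines, TNF family ligands and chemokines rose more often than they fell, with 20 higher and 9 lower of 33 tested. Cytokines alone were higher in 14 and lower in 3 of 19. Chemokines were higher in 3 and lower in 4 of 8, and TNF family ligands in 3 and 2 of 6. Of all genes tested 36.2% were higher and 39.0% lower. Ifng, the gene of interferon gamma, stood at 5.28 and 3.62 CPM at day 0 and 583 and 529 CPM at day 3 (6.95 ± 0.27) with no overlap between the days. Tnf rose from 2.25 and 1.40 to 14.7 and 14.4 CPM (2.98). Il2 was low on both days, at 0.0625 and 0.273 CPM at day 0 and 1.97 and 0.425 CPM at day 3, and its difference (2.84 ± 1.07, or 1.35 without library 1, 3.58 without library 2, 2.15 without library 3 and 4.19 without library 4) lost its call when day 0 was counted as 1 library and without library 1 or 3. Lif, a cytokine of the interleukin-6 family, rose from 1.84 and 1.91 to 227 and 294 CPM (7.11), Lta from 8.12 and 8.91 to 208 and 181 CPM (4.51), and the chemokine gene Ccl3 from 2.03 and 2.32 to 78.9 and 58.5 CPM (4.98). Ccl5 moved the other way, from 146 and 135 to 4.55 and 4.74 CPM (-4.92), as did Ltb, the membrane anchor of lymphotoxin, from 703 and 705 to 55.9 and 86.4 CPM (-3.31).

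Cytokine receptors were more often lower, with 28 of 49 genes of receptors and JAK-STAT signalling down and 13 up. The chains of the interleukin-2 receptor diverged. Il2rb, the signalling chain shared with interleukin-15, rose from 239.7 and 243 to 859.8 and 817 CPM (1.80 ± 0.06). Il2rg, the common gamma chain, fell from 250.2 and 243 to 124 and 124 CPM (-0.99 ± 0.06). Per length of exon Il2ra went from 0.444 to 172 RPKM, Il2rb from 56.3 to 196 RPKM and Il2rg from 103 to 52.0 RPKM, so the alpha chain went from the lowest of the 3 levels to close to the beta chain. The interleukin-12 receptor genes Il12rb2 and Il12rb1 rose from 5.47 and 4.95 to 199 and 234 CPM and from 16.2 and 16.1 to 153 and 183 CPM. Genes of receptor chains that fell included Tgfbr2 for transforming growth factor beta (-3.07), Il6st for interleukin-6 (-4.40), Il18r1 for interleukin-18 (-3.76) and Ifngr2 for interferon gamma (-3.50). Jak1, the kinase of the interleukin-6, interferon and common gamma chain receptors, fell from 1215 and 1202 to 290.1 and 289 CPM (-2.06). Cish and Socs2, known targets of STAT5, rose (4.26 and 6.30, or 6.92 without library 4), whereas Socs3, a target of STAT3, fell (-2.54).

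Among transcription factors, 8 of 11 factors of the effector fate rose and 8 of 10 factors of memory fell. Irf4, which scales with receptor signal strength and supports expansion, stood at 13.6 and 12.5 CPM at day 0 and 539.6 and 573 CPM at day 3 (5.41 ± 0.09). Tbx21, which encodes T-bet, stood at 15.7 and 16.5 CPM at day 0 and 108 and 117 CPM at day 3 (2.81 ± 0.08), and Irf8 at 11.7 and 10.4 CPM at day 0 and 408 and 396 CPM at day 3 (5.18 ± 0.10). The days did not overlap for any of these. Bhlhe40 rose by 4.75 and Prdm1, which encodes BLIMP-1, by 1.75, from 2.47 and 2.43 to 7.69 and 8.81 CPM. Id2, which supports effector cells, fell from 68.5 and 70.3 to 18.2 and 14.9 CPM (-2.07), and Zeb2 did not pass the test (-0.13). Eomes fell from 25.5 and 27.97 to 10.0 and 9.91 CPM (-1.42), and Id3, a factor of memory precursors, differed by 0.27, a call lost when day 0 was counted as 1 library and under scaling by totals. Runx1 fell from 27.7 and 30.1 to 0.775 and 1.17 CPM (-4.90), while Runx3, the factor of the CD8 lineage, differed by -0.21, a call lost without library 1, 3 or 4.

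Homing genes were lower in 26 of 34 and higher in 7. All 7 genes of lymphoid recirculation fell, among them Cxcr4 (from 257 and 265 to 1.55 and 3.15 CPM, -6.81). Of 11 inflammatory chemokine receptors 8 fell. Cxcr3, a receptor of effector T cells, went from 17.9 and 17.7 to 6.91 and 4.601 CPM (-1.62), Cxcr6 from 46.7 and 47.3 to 2.29 and 2.41 CPM (-4.32) and Cx3cr1 from 19.6 and 18.4 to 0.388 and 0.142 CPM (-6.12, or -7.03 without library 1). Ccr6, Ccr8 and Ccr4 were the 3 that rose (6.41 for Ccr6, 3.41 for Ccr4, and 5.57, or 6.65 without library 3 for Ccr8). The integrin chains Itga4 and Itgb7, partners in gut homing, fell by similar amounts, from 503 and 505 to 37.9 and 36.1 CPM and from 706 and 706 to 48.8 and 51.8 CPM (-3.77 and -3.81). Itgb1, the alternative partner of the alpha 4 chain, rose from 154 and 159 to 611 and 504 CPM (1.83 ± 0.08).

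**Figure D3:**
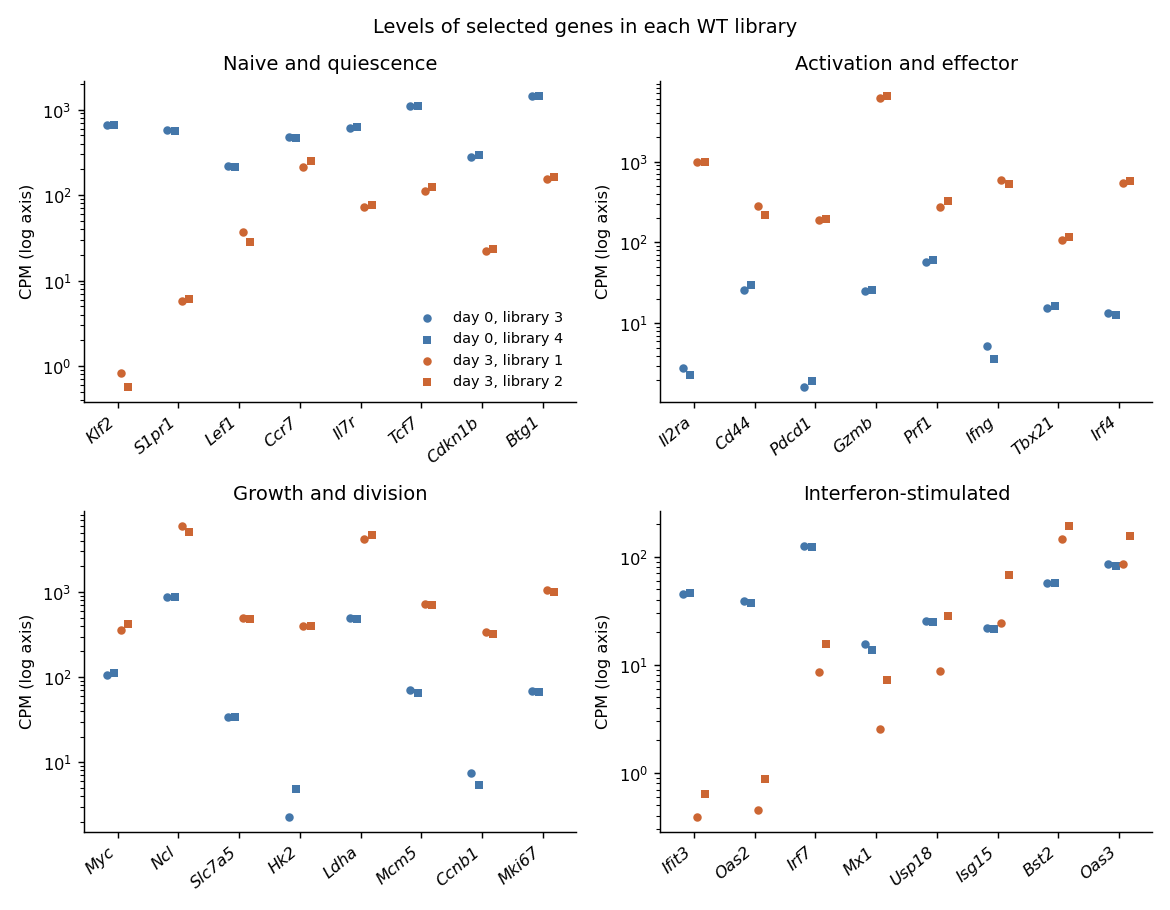
CPM (log axis) of 32 genes in each WT library, in 4 panels. Blue symbols are the day 0 libraries 3 and 4 and orange symbols the day 3 libraries 1 and 2. In the panels of naive, effector and growth genes the days are apart for each gene drawn, and in the interferon panel the day 3 libraries differ from each other, with library 2 above library 1.

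Genes of the cell cycle rose broadly. All 57 genes of DNA replication and nucleotide synthesis were higher, 56 of them at least 2-fold, with a median of 2.68. Cdc6, which loads the replicative helicase onto origins, stood at 3.66 and 2.80 CPM at day 0 and 174 and 164 CPM at day 3 (5.70 ± 0.11). Mcm5, a subunit of that helicase, stood at 71.5 and 65.5 CPM at day 0 and 724 and 705 CPM at day 3 (3.38 ± 0.07), and Rrm2, the regulated subunit of ribonucleotide reductase, at 11.9 and 11.7 CPM at day 0 and 511 and 458 CPM at day 3 (5.36 ± 0.08). The days did not overlap for any of them. Pcna, the sliding clamp, was already at from 239 and 233 to 872 and 867 CPM (1.88). Of 47 genes of G2 and mitosis 44 rose and 2 fell, with a median of 4.20. Ccnb1, the mitotic cyclin B1, stood at 7.44 and 5.40 CPM at day 0 and 337 and 319 CPM at day 3 (5.67 ± 0.11), and Mki67, the marker Ki-67, at 67.8 and 66.9 CPM at day 0 and 1068 and 1006 CPM at day 3 (3.94 ± 0.08). Top2a, which untangles sister chromosomes, rose from 72.0 and 75.8 to 1059 and 1118 CPM (3.88 ± 0.07). The members called lower were Smc4, a condensin subunit (-0.16), and Cdc25b, a phosphatase that starts mitosis (-0.17), and that count was 1 or 0 without any of the WT libraries. The call of Cdc25b was also lost with day 0 counted as 1 library. Of 28 cyclins, inhibitors of their kinases and E2F factors 20 rose and 6 fell. The cyclin E genes rose (2.89 for Ccne1 and 4.15 for Ccne2), as did Cdk4 (2.01). The D cyclins differed, with Ccnd2 at 397 and 398 CPM at day 0 and 808 and 815 CPM at day 3 (1.03 ± 0.06), Ccnd3 at 169 and 168 CPM at day 0 and 233 and 262 CPM at day 3 (0.56 ± 0.07) and Ccnd1 falling from about 1 CPM to near 0 (-5.51, or -7.94 without library 1 and -4.68 without library 2). Per length of exon Ccnd2 went from 42.2 to 86.3 RPKM and Ccnd3 from 19.2 to 28.2 RPKM. E2f1 rose from 5.34 and 6.93 to 54.6 and 61.0 CPM (3.24) and the pocket protein gene Rbl2, a repressor of resting cells, fell from 99.0 and 107 to 27.9 and 29.0 CPM (-1.85).

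Promoters of these genes were searched for elements known from cell cycle control, and 2 windows are shown. The 250 bases before the RefSeq start (GRCm38.p6) were searched on both strands. The CHR element TTTGAA was present in 12 of 37 promoters of G2 and mitosis genes (32.4%) and in 10.9% of the promoters of all 10581 tested genes with a promoter in the table. CCAAT was present in 28 of the 37 (75.7%), against 36.3% of all. An E2F site (TTTCCCGC, TTTGGCGC, TTTCGCGC or TTTGCCGC) was present in 8 of 47 promoters of replication genes (17.0%), against 3.50% of all. These are counts of letters and not of bound sites. Ube2c, a ubiquitin-conjugating enzyme of mitotic exit that rose from 4.00 and 3.14 to 147 and 156 CPM (5.40), is shown because it holds both mitotic elements, and Cdc6 because it holds an E2F site. Capitals mark matches on either strand. The Ube2c window, chr2:164769679-164769928, plus strand, has the CHR element 29 bases before the start and 6 CCAAT matches, of which a pair overlap on opposite strands. The Cdc6 window, chr11:98907901-98908150, plus strand, has its E2F match 138 bases before the start.
Ube2c: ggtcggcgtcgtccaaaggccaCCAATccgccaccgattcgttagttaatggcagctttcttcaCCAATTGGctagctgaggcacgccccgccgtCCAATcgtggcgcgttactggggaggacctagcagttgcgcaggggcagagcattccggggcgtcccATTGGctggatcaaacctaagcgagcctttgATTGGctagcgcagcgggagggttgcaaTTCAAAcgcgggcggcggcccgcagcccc
Cdc6: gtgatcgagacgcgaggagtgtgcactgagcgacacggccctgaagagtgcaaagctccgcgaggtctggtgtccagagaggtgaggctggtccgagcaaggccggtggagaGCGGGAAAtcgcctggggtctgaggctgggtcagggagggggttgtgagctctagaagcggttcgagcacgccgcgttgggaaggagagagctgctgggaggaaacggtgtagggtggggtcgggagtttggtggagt

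Of 28 genes of the p53 response and of DNA repair 23 were higher and 5 lower, beside 36.2% and 39.0% of all genes tested. Repair genes rose in 13 of 14, with a median of 1.95. The 14 p53 targets were mixed, 10 higher and 4 lower, with a median of 0.59. At least 2-fold, 5 of these targets were higher and 3 lower. Cdkn1a, the cyclin-dependent kinase inhibitor p21, stood at 0.531 and 0.581 CPM at day 0 and 44.0 and 36.2 CPM at day 3 (6.17 ± 0.19), and both day 3 libraries were far above day 0. Chek1, the checkpoint kinase, rose (4.57). Trp53inp1, a p53 target that promotes cell death and autophagy, fell from 287 and 288 to 12.9 and 14.97 CPM (-4.37), as did Btg2 (-3.55), which is also a brake of the naive list. Mdm2, the ligase that degrades p53, differed by 0.36 and Trp53 itself by 0.32.

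The translation apparatus was divided between its assembly factors and its structural proteins. Myc, the factor that drives growth, stood at 106 and 113 CPM at day 0 and 358 and 418 CPM at day 3 (1.83 ± 0.08). All 30 genes of the nucleolus and of ribosomal RNA processing rose, with a median of 1.91. Ncl, which encodes nucleolin, stood at 874 and 872 CPM at day 0 and 6016 and 5113 CPM at day 3 (2.67 ± 0.07). Initiation factors rose in 17 of 18 and the cytosolic tRNA synthetases in all 20. Eif5a rose from 381 and 384 to 2465 and 2398 CPM (2.67), and Eif4ebp1, a repressor of cap-dependent initiation, rose from low levels, from 3.03 and 4.58 to 49.0 and 62.2 CPM (3.88). In contrast, 61 of 77 cytosolic ribosomal protein genes were lower and 7 higher, with a median of -0.58. Rps27 fell from 1893 and 1888 to 449.9 and 467 CPM (-2.04 ± 0.08) and Rpl12 from 2973 and 2938 to 1400.2 and 1489.7 CPM (-1.03), while Rps2 rose from 1795 and 1799 to 3735 and 3872 CPM (1.08 ± 0.06). The falls of this list were small, 14 of them reaching 2-fold, and reads of ribosomal protein genes can be shared with their pseudogenes. Rps27l, a diverged copy of Rps27 and a p53 target, moved against it, from 33.7 and 35.4 to 205 and 169 CPM (2.44). Of 10 genes of the MYC network 4 rose and 3 fell, near the shares over all genes tested (36.2% and 39.0%). Those that fell included Mxd4 (from 138 and 138 to 2.55 and 3.43 CPM, -5.53) and Mxd1 (-2.49), which encode antagonists of MYC. The E-box CACGTG, which MYC is known to bind, was present in 1 of 26 promoters of nucleolar genes (3.85%), against 8.16% of all.

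**Figure D4:**
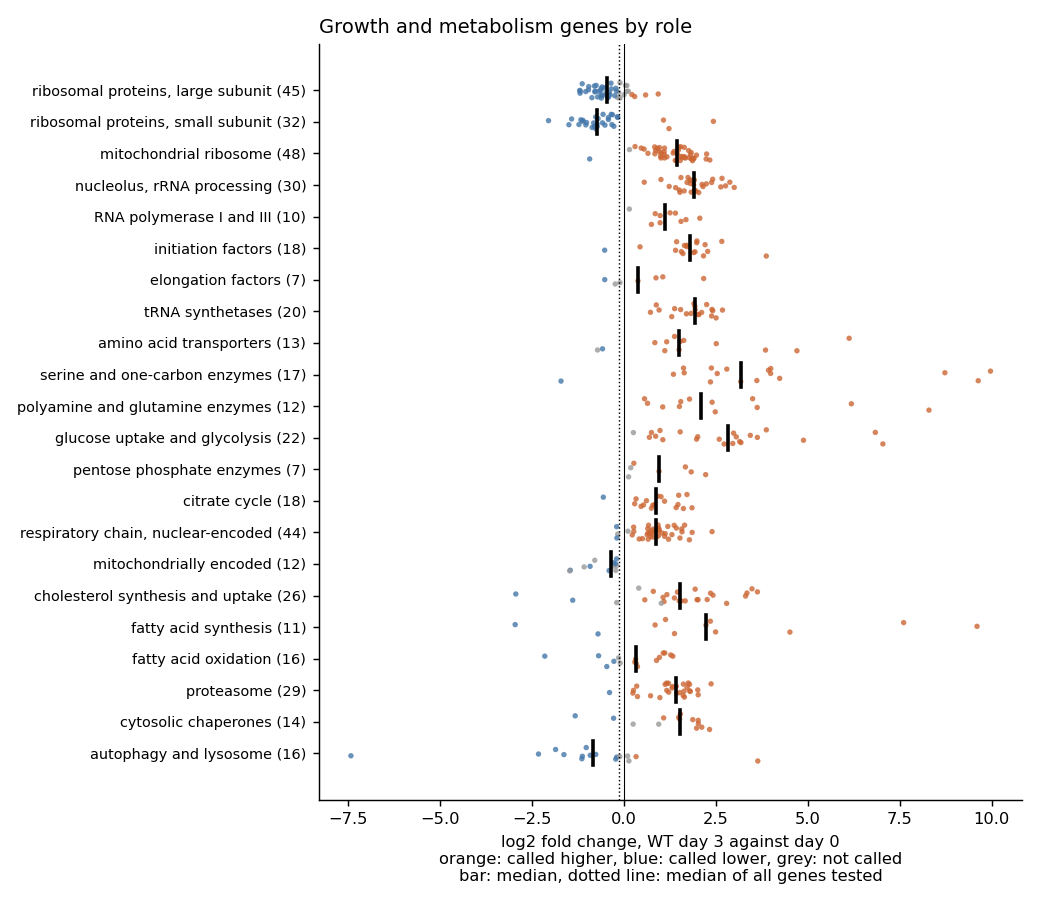
Log2 fold change of the tested members of 22 groups of growth and metabolism genes (horizontal axis), with the number tested in brackets. Points are genes, bars medians and the dotted line the median of all genes. Both groups of cytosolic ribosomal proteins, the mitochondrially encoded genes and the autophagy and lysosome genes have medians below 0, and every other group drawn has a median above 0.

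Genes of amino acid transport and one-carbon metabolism rose in 39 of 42, with a median of 2.39. The list also holds the regulator gene Ddit3, whose value is given below. Slc7a5, the light chain of the large neutral amino acid transporter, stood at 34.1 and 33.5 CPM at day 0 and 495 and 484 CPM at day 3 (3.86 ± 0.07) with both day 3 libraries above both of day 0. Its heavy chain gene Slc3a2 rose by 1.54. Asns, asparagine synthetase, stood at 0.312 and 0.137 CPM at day 0 and 82.1 and 115 CPM at day 3 (8.73 ± 0.36, or 9.48 without library 3). Psat1 and Phgdh, enzymes of serine synthesis, rose from 32.3 and 32.6 to 509 and 525 CPM and from 88.9 and 92.1 to 594 and 669.5 CPM, and Mthfd2, an enzyme of mitochondrial folate metabolism, from 26.6 and 28.4 to 349 and 326 CPM (3.99, 2.80 and 3.62). Odc1, which makes the polyamine putrescine, rose from 94.1 and 94.1 to 1145 and 992 CPM (3.50 ± 0.07). Atf4, the factor of the amino acid response, rose (1.35), while Ddit3, which encodes the stress factor CHOP, fell from 22.6 and 20.7 to 5.36 and 7.96 CPM (-1.70). The element TGATGNAAT, which ATF4 is known to bind, was present in 3 of 45 promoters of tRNA synthetase and amino acid genes (6.67%), against 0.369% of all. The window of Aars, alanyl-tRNA synthetase, which rose from 47.3 and 51.4 to 311 and 323 CPM (2.69), is shown as the promoter chr8:111033592-111033841, plus strand, with the match 113 bases before the start in capitals.
Aars: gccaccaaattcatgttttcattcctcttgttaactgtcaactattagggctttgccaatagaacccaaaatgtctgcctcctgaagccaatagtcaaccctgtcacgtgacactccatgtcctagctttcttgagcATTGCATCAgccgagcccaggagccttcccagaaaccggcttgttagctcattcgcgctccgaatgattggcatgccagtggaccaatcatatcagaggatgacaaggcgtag

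Glycolysis rose, 21 of 22 genes of glucose uptake and glycolysis being higher. Hk2, the inducible hexokinase, stood at 2.25 and 4.78 CPM at day 0 and 401 and 396 CPM at day 3 (6.84 ± 0.27, or 7.47 without library 4), and its constitutive relative Hk1 rose from 163 and 159.6 to 269 and 320.3 CPM (0.87 ± 0.07). Per length of exon Hk2 went from 0.589 to 66.7 RPKM and Hk1 from 18.9 to 34.6 RPKM, so Hk2 passed Hk1. Ldha, lactate dehydrogenase A, stood at 491 and 484 CPM at day 0 and 4224 and 4665 CPM at day 3 (3.19 ± 0.07). Slc2a1, the glucose transporter GLUT1, rose from 29.0 and 30.3 to 189.5 and 204 CPM (2.73), and Slc16a3, a lactate exporter, from 2.22 and 1.81 to 226 and 309.9 CPM (7.05). Hif1a rose (2.42) and Vegfa, a hypoxia target, went from 0.156 and 0.239 to 27.6 and 40.8 CPM (7.42), whereas Pdk1, the kinase that closes pyruvate dehydrogenase and a hypoxia target too, fell from 287 and 295 to 100.4 and 134 CPM (-1.32).

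Mitochondrial genes of the nucleus rose, and those of the mitochondrial genome did not. The citrate cycle rose in 17 of 18 genes, the nuclear-encoded respiratory chain in 40 of 44 and the mitochondrial ribosome in 46 of 48. Their medians were 0.88, 0.88 and 1.45. Hspd1, the chaperonin HSP60, rose from 207 and 210.2 to 2465 and 2046 CPM (3.43 ± 0.08). Of 12 mitochondrially encoded genes 6 were lower and none was higher, beside 39.0% and 36.2% of all genes tested. mt-Co1, a subunit of cytochrome oxidase, stood at 8911 and 9151 CPM at day 0 and 4866 and 4726 CPM at day 3 (-0.91 ± 0.06). Reads of mitochondrial genes can be shared with nuclear copies, and mt-Co3, a subunit of the same oxidase, had only 15.3 and 19.1 CPM at day 0 and 7.78 and 4.74 CPM at day 3. All mitochondrial transcripts together made up 2.03% and 2.08% of counts at day 0 and 1.41% and 1.25% at day 3.

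Lipid synthesis rose. Genes of cholesterol synthesis and uptake were higher in 21 of 26 and genes of fatty acid synthesis in 9 of 11. The 26 also hold the exporter genes Abcg1 and Abca1, whose values follow. Sqle, squalene epoxidase, stood at 10.8 and 10.3 CPM at day 0 and 129.9 and 134 CPM at day 3 (3.64 ± 0.08), and Scd2, a fatty acid desaturase, at 38.2 and 39.6 CPM at day 0 and 826 and 959 CPM at day 3 (4.52 ± 0.08). In both genes the day 3 libraries were higher. The desaturase gene Scd1 went from 0.125 and 0.0342 to 52.1 and 80.9 CPM (9.60, or 10.79 without library 3 and 9.02 without library 4), and Fads2 from 0.437 and 0.410 to 67.7 and 99.6 CPM (7.61). The cholesterol exporter genes Abcg1 and Abca1 fell, from 100.1 and 95.8 to 11.4 and 14.3 CPM (-2.93) and from 30.7 and 32.1 to 9.01 and 15.1 CPM (-1.39). Acss2, which makes acetyl-CoA from acetate, fell (-2.95). Cpt1a, which admits long-chain fatty acids to the mitochondrion for oxidation, fell from 103 and 107 to 24.9 and 22.7 CPM (-2.14 ± 0.08), although 10 of 16 oxidation genes rose. The sterol element TCACNCCAC was present in 1 of 17 promoters of cholesterol genes (5.88%), against 0.983% of all.

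Genes of protein folding and degradation rose in 57 of 78. Genes of the endoplasmic reticulum and the unfolded protein response rose in 17 of 19, with Hspa5, the chaperone BiP, going from 469.8 and 464 to 1488 and 1554 CPM (1.70) and Xbp1, a transcription factor of that response, from 29.2 and 32.4 to 156 and 181 CPM (2.45). Dnajb9, a cochaperone of BiP, fell from 84.8 and 90.7 to 9.30 and 8.67 CPM (-3.29). In the cytosol Hsp90ab1 rose from 1738 and 1737 to 7763 and 7372 CPM (2.12). The proteasome rose in 28 of 29 genes. Psmb5, a catalytic subunit of the constitutive proteasome, went from 53.6 to 165 RPKM, and Psmb8, its counterpart in the immunoproteasome, from 71.7 to 119 RPKM, so the constitutive subunit passed the inducible one per length of exon. That order depends on the exon lengths used. Autophagy and lysosome genes were lower in 11 of 16, for example Ctss, cathepsin S (from 164 and 173 to 33.3 and 34.4 CPM, -2.32). Gabarapl1, an autophagosome protein, rose from 6.22 and 6.63 to 81.9 and 78.8 CPM (3.65).

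Interferon-stimulated and antigen presentation genes were lower in 41 of 60 and higher in 5. Ifit3, an interferon-induced antiviral protein, stood at 45.3 and 46.1 CPM at day 0 and 0.388 and 0.637 CPM at day 3 (-6.48 ± 0.27). Irf7, the factor that amplifies the type I response, stood at 124 and 122 CPM at day 0 and 8.50 and 15.6 CPM at day 3 (-3.36 ± 0.26), and Oas2, a sensor of double-stranded RNA, at 39.2 and 37.1 CPM at day 0 and 0.452 and 0.885 CPM at day 3 (-5.85 ± 0.18). Both day 3 libraries were lower for each. The day 3 libraries differed from each other in several of these genes, library 2 being the higher, and without library 1 the count of members called higher was 11. Isg15, a ubiquitin-like modifier, stood at 21.97 and 21.4 CPM at day 0 and 24.2 and 67.9 CPM at day 3 and did not pass the test (1.08 ± 0.54), but did without library 1, at 1.65. Ifi27l2a stood at 119 and 112 CPM at day 0 and 79.8 and 139 CPM at day 3, with a log2 fold change of -0.08 that became 0.27 without library 1 and -0.50 without library 2. Mx1 stood at 15.5 and 13.6 CPM at day 0 and 2.52 and 7.18 CPM at day 3 (-1.60 ± 0.44, or -2.50 without library 2), a call lost when day 0 was counted as 1 library or without library 3 or 4. Bst2, which tethers virions, rose from 56.9 and 56.9 to 145 and 193 CPM (1.57). Of 15 genes induced by interferon gamma 11 were lower, including Irf1 (-1.55) and Gbp9 (-3.67), while Gbp5 was higher (0.93). The class I genes H2-K1 and B2m fell from 3317 and 3392 to 1288 and 1547 CPM and from 1821 and 1835 to 801 and 932 CPM (-1.24 and -1.08), whereas Tap1, a subunit of the peptide transporter, rose (0.48). Counts of the H2 and Gbp families are uncertain where their copies are near-identical. The interferon element GAAANNGAA was present in 12 of 25 promoters of type I interferon-stimulated genes (48.0%), against 6.28% of all. Ifit3, whose window is chr19:34583279-34583528, plus strand, is shown because it is the list's largest fall and holds 3 matches, in capitals, at 155, 121 and 102 bases before the start.
Ifit3: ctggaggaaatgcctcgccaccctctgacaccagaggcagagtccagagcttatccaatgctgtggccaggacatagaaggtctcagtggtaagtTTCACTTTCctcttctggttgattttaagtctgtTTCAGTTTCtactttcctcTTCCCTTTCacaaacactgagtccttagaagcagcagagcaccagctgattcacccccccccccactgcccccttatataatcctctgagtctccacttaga

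Of 32 regulators of apoptosis 13 were higher and 14 lower, near the shares over all genes tested (36.2% and 39.0%). Bcl2l1, which encodes the survival protein BCL-XL, stood at 17.1 and 17.1 CPM at day 0 and 173 and 174 CPM at day 3 (3.34 ± 0.08). Bcl2 did not pass the test, at 202 and 206 CPM at day 0 and 178 and 203 CPM at day 3, and Mcl1 fell from 626 and 636 to 388 and 376 CPM (-0.72). Per length of exon Bcl2l1 went from 3.73 to 37.8 RPKM, Bcl2 from 22.3 to 20.8 RPKM and Mcl1 from 185 to 112 RPKM, so Mcl1 stayed the highest of the 3 and Bcl2l1 passed Bcl2. Among the death-promoting members, Bcl2l11, which encodes BIM, fell from 82.5 and 82.8 to 19.1 and 17.4 CPM (-2.17 ± 0.09), and Bak1 rose (1.51). Cflar, an inhibitor of caspase-8, fell (-1.66).

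Chromatin genes rose in 18 of 27 and fell in 9. Histone variants, chaperones and HMG proteins rose in 11 of 12. The other groups were mixed, with DNA methylation genes higher in 4 and lower in 3 of 7. Polycomb genes were higher in 3 and lower in 5 of 8, beside 36.2% and 39.0% of all genes tested. Dnmt1, the maintenance DNA methyltransferase, went from 170.1 and 178 to 635 and 608 CPM (1.84), and Tet1, an enzyme that oxidises methylcytosine, from 28.9 and 29.99 to 0.646 and 1.49 CPM (-4.80, or -5.47 without library 2). The polycomb methyltransferases moved in opposite directions, Ezh2 rising from 43.8 and 46.5 to 462 and 454 CPM (3.34 ± 0.07) and Ezh1 falling from 91.6 and 94.9 to 19.7 and 18.9 CPM (-2.27 ± 0.08). Of 30 regulators of RNA 22 rose. Hnrnpll, which directs the splicing of CD45, rose from 33.5 and 34.0 to 201 and 189 CPM (2.53), and the kinase gene Clk1 fell from 474 and 464 to 98.8 and 87.2 CPM (-2.33). Mir155hg, the host transcript of miR-155, rose from 0.875 and 1.67 to 8.04 and 7.72 CPM (2.64), and Mir17hg did not pass the test (-0.04). Tubulin and lamin genes rose in 10 of 13, with Lmnb1 at 3.08. Of 21 genes of actin and its regulators 9 rose and 11 fell, beside 36.2% and 39.0% of all genes tested. Lgals1, which encodes galectin-1, rose from 107 and 109 to 608 and 488 CPM (2.34), and S100a6 fell from 13.1 and 13.9 to 0.711 and 0.885 CPM (-4.08). Clock genes fell in 9 of 13, among them Dbp, an output factor of the clock (-2.79), and Arntl, which encodes BMAL1 (-1.89).

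Receptors shared with natural killer (NK) cells fell in 17 of 20. Klrd1, which encodes CD94, fell from 233 and 224 to 23.4 and 17.9 CPM (-3.47 ± 0.13). Klrk1, which encodes the stress receptor NKG2D, rose from 63.1 and 59.0 to 158 and 152 CPM (1.34 ± 0.07). All 10 NK cell markers, which include Gzma and Eomes, were lower, 9 of them at least 2-fold. Their median was -4.96 and their smallest fall -0.25. Their summed level was 380.0 and 389 CPM at day 0 and 219.7 and 236 CPM at day 3, a smaller fall than that median. Gzma is part of this sum, and genes of NK cell receptors are among the markers. A shared fall of the sum with Gzma and with the receptors above is therefore partly built in. The part of NK cells in the falls of these genes was not tested.

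Markers of other spleen cells were mostly lower at day 3. The 17 monocyte and macrophage markers tested summed to 109.9 and 111 CPM at day 0 and 12.1 and 16.4 CPM at day 3, and 15 of them fell. Of 18 such markers in the table, 8 had no count in either day 3 library, Vcam1, Adgre1 and C1qa among them. B cell markers summed to 587 and 597 CPM at day 0 and 286 and 285 CPM at day 3, most of it Ighm, the heavy chain of IgM, at 489.6 and 497 CPM at day 0 and 264 and 256 CPM at day 3. Of 19 B cell markers tested 12 fell and 2 rose, Ebf1 from 0 and 0 to 0.355 and 0.354 CPM and Fcmr from 0.375 and 0.0342 to 0.969 and 1.84 CPM. Ms4a1 and Cd22 had no count at day 3. Gamma-delta T cell markers summed to 252 and 253 CPM at day 0 and 24.6 and 23.3 CPM at day 3, most of it Trdc, the delta constant region, at 176 and 176 CPM at day 0 and 18.2 and 17.4 CPM at day 3 (-3.30). Pecam1, an adhesion molecule of endothelium and of naive T cells, fell from 136 and 141 to 11.5 and 15.9 CPM. The markers of CD4 and regulatory T cells summed to 42.5 and 42.8 CPM at day 0 and 1655 and 1828 CPM at day 3, with Il2ra, Tnfrsf4 and Ctla4 among them. Cd4 itself was at 0.344 and 0.137 CPM at day 0 and 0 and 0 CPM at day 3 and Foxp3 at 0.656 and 1.26 CPM at day 0 and 0.0646 and 0.0354 CPM at day 3. All 13 identity genes of CD8 T cells were present on both days, 10 of them lower and 3, Thy1, Cd5 and Cd2, higher by at most 0.29 on the log2 scale and not called under scaling by totals. Cd2 was also not called with day 0 counted as 1 library. Dendritic cell markers summed to 259 and 262 CPM at day 0 and 261 and 326 CPM at day 3, mostly Ccr9 at day 0 and Batf3 and Bst2 at day 3, the genes described above. Of 11 such markers in the table, 4 had no count in either day 3 library, Clec9a, Siglech, Cd209a and Ccr9. The part of lost non-T-cell RNA in the falls described above was not tested.

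**Figure D5:**
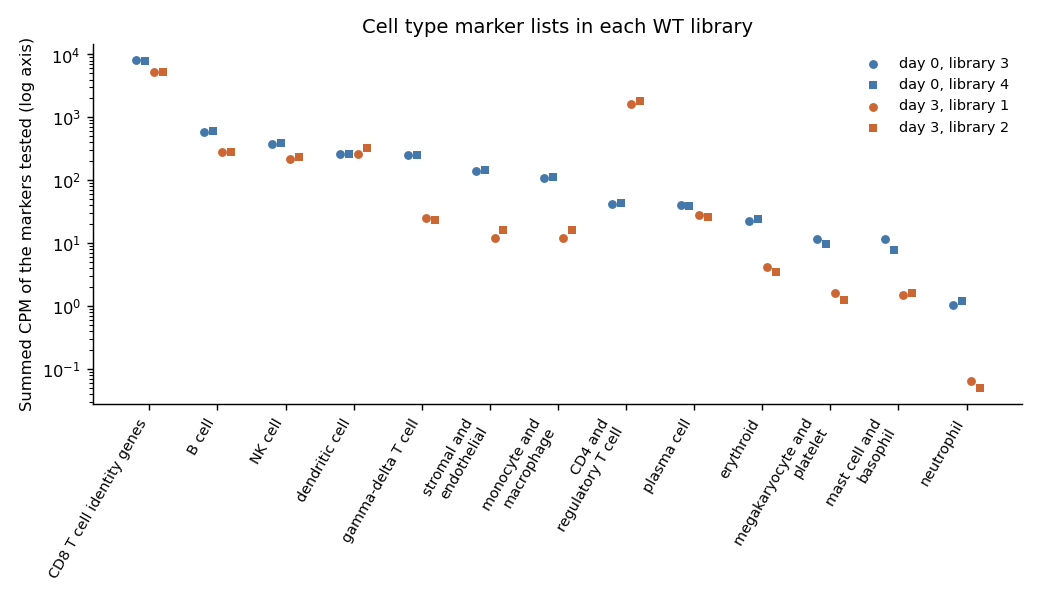
Summed CPM (log axis) of the tested members of 13 cell type marker lists in each WT library, blue for day 0 and orange for day 3, with sums below 0.05 drawn at 0.05. The CD4 and regulatory T cell list, which contains Il2ra, Tnfrsf4 and Ctla4, rises, dendritic cell markers, with Ccr9, Batf3 and Bst2 among them, overlap between days, and the other lists are lower in both day 3 libraries.

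The change over 3 days was compared with that in Susd2-/- cells, which share no library with the WT comparison but share the fitted spread. Of the 5805 WT genes that rose, 5218 were also called higher in Susd2-/- cells. Of the 6268 that fell, 5416 were also called lower, while 86 genes were called in opposite directions. The share of all genes tested that was called in Susd2-/- cells is not given here, so these counts cannot be set against it. The day effect itself differed between genotypes for 2164 genes (13.5%), 1059 with a higher and 1105 with a lower effect in Susd2-/- cells. That count was 1199 with the WT day 0 libraries counted as 1, 1305 without library 3 and 1176 without library 4. The genes of smallest p in this test included Nr4a1, Atf3, Klf6 and Sik1, whose day 0 levels in Susd2-/- cells were above those in WT cells. Atf3, a stress-induced factor, rose in WT cells from 0.687 and 0.683 to 121 and 123 CPM and stood at 6.49 and 6.08 CPM at day 0 and 105 and 115 CPM at day 3 in Susd2-/- cells, a difference in log2 fold change of -3.34 ± 0.18. Il2ra, Gzmb and Tcf7 had called differences too, of -0.54 ± 0.16, 0.65 ± 0.12 and -0.49 ± 0.09, all smaller than their change in WT cells.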

How the data were processed

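The authors deposited whole-number gene counts for 27019 symbols in 15 lane columns, with no normalization, per the file headers and the values. Tools listed, per the submitters' processing notes, were Subread 2.0.1, SAMtools 1.10, HISAT2 2.1.0 and fastp 0.23.2, with GRCm38 as the build. How multiply aligned reads were handled, which annotation release served and whether counting used strand is not given in the sources used here, so near-identical families and overlapping antisense genes are uncertain. The library kit was stranded, per the labels' protocols. Every column had a sample.

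Lanes were summed to 8 libraries. Genes were filtered with filterByExpr and tested with edgeR 4.0.16 in R 4.3.3 (robust glmQLFit, TMM, all 4 groups in a joint fit, Benjamini-Hochberg adjustment over 16057 genes). The script was tested on simulated data. RPKM used merged exon lengths of GENCODE M21, matched by symbol for 15737 genes. Promoters came from RefSeq GRCm38.p6, for 10581 tested genes, with the entry of lowest coordinate where a gene had several. Alternatives were other scalings and filters, DESeq2 1.42.0, limma 3.58.1 (voom), a test against 2-fold (glmTreat), the WT libraries alone, 1 lane per library, day 0 counted as 1 library, and each library left out.

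The comparison, gene lists and naming rule were chosen with earlier results of these data known. The rule named set genes of each list, the 4 largest called rises and falls of a list, the 20 largest rises and falls of the table, 10 genes silent on either day and 6 interaction genes. The rises and falls of the table were taken only from called genes with no overlap between the days and a mean of at least 10 CPM. Susd2, Bak1, Ccnd1, Cd22, Cd209a, Chek1, Clec9a, Ebf1, Egr2, Fas, Fcmr, Gbp9, H2-K1, Hk1, Ighm, Il12rb1, Jak1, Klf3, Nr4a2, Nr4a3, Pik3ip1, Rpl12, Runx3, Siglech, Tgfbr2, Tnfsf10, Trp53 and Zeb2 were chosen after their values were seen. Some genes that the rule names are not reported here.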

Additional observations from a re-analysis of the deposited data

Results flagged for a closer look

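The day effect differed between WT and Susd2-/- cells most clearly, by adjusted p of the interaction in edgeR, for 6 genes, each with a lower day effect in Susd2-/- cells. Sik1, a salt-inducible kinase, stood at 77.2 and 76.6 CPM at day 0 and 70.1 and 68.8 CPM at day 3 in WT cells and at 304 and 309.6 CPM at day 0 and 63.8 and 61.3 CPM at day 3 in Susd2-/- cells, a difference in log2 fold change of -2.15 ± 0.09 (adjusted p = 4.76e-11). For Atf3 the difference was -3.34 ± 0.18 (adjusted p = 2.55e-09), with a rise in both genotypes. Klf6, a zinc finger factor induced by stress, fell in both, with a log2 fold change of -0.91 in WT and -2.35 in Susd2-/- cells (difference -1.44 ± 0.08). Dusp5, a phosphatase of ERK, rose in WT cells from 55.9 and 61.7 to 102 and 123 CPM and stood at 196 and 193 CPM at day 0 and 102 and 102 CPM at day 3 in Susd2-/- cells (difference -1.86 ± 0.11). For Nr4a1 the difference was -1.53 ± 0.10 and for Per1, a clock gene, -1.73 ± 0.11. All 6 were higher in both Susd2-/- day 0 libraries than in both WT day 0 libraries. Among the 263 genes named and tested, the interaction was called for 97, beside 13.5% of all genes tested. The named genes include these 6, picked by this test, and others picked for large changes, so that count is no result about them.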

How the results depend on the processing

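The counts of genes higher (5805) and lower (6268) stayed within 1.5 times under the alternatives run except the test against a 2-fold change (glmTreat), which called 2948 higher and 3374 lower. Leaving out a library gave 5471 to 5759 higher and 5633 to 5907 lower genes, and 3546 to 3720 and 4044 to 4212 at least 2-fold. With library totals alone 42.7% of the called genes were higher, against 48.1%. The interaction was less stable, with 2164 genes, 1199 when the WT day 0 libraries were counted as 1, and 1176 to 2433 without each library in turn, the lower values coming without day 0 library 3 (1305) or 4 (1176). The cause was not tested. The WT libraries alone give no interaction. No paired analysis was possible because the WT day 0 and day 3 libraries share no library number. Of 263 named genes, 221 kept their direction and their side of the threshold under every alternative run. Leaving out a library moved the fold by over 1.5 times for 30 of 254 named genes that were called, most of them near 0 on one of the days. Nr4a1 reversed with library totals alone (a log2 fold change of -0.00144), and Ifi27l2a, not called with all libraries, ranged from -0.50 to 0.27 without each library in turn.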

Other observations

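Several of the largest falls were in genes of transporters, channels and enzymes that the lists do not cover. Slc28a2b, of the concentrative nucleoside transporter family, went from 292 and 288 to 0.678 and 1.27 CPM (-8.23), Slc16a5, of the monocarboxylate transporter family, from 49.0 and 44.7 to 0.323 and 0 CPM (-8.09, or -13.58 without library 1 and -7.13 without library 2), and Slc6a19, a neutral amino acid transporter of gut and kidney, from 38.1 and 42.1 to 0.323 and 0.142 CPM (-7.39, or -8.10 without library 1). Kcna2, a voltage-gated potassium channel, went from 79.3 and 78.1 to 0.323 and 0.142 CPM (-8.36, or -9.08 without library 1), and Hsd11b1, which regenerates active glucocorticoid, from 96.1 and 95.6 to 0.485 and 0.672 CPM (-7.37). None of these 5 was above 1.27 CPM in a day 3 library. H2-Ob, a subunit of the class II modulator H2-O better known from B cells, went from 70.1 and 74.5 to 0.129 and 0.177 CPM (-8.86).

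Further large rises included genes best known from other cell types. Tg, which encodes thyroglobulin, stood at 0.812 and 0.581 CPM at day 0 and 164 and 198 CPM at day 3 (8.00 ± 0.17), with both day 3 libraries far above day 0. Sema4c, a semaphorin, rose from 0.250 and 0.137 to 57.4 and 52.5 CPM (8.11). Lrrc32, which displays latent transforming growth factor beta on cells, had no count at day 0 and 200 and 292 counts at day 3, at least 169.7-fold higher. Sdc1, the plasma cell marker syndecan-1, rose from 0.437 and 0.205 to 27.6 and 24.8 CPM (6.31, or 7.00 without library 3), whereas the plasma cell genes Igha and Jchain fell to 2 counts or fewer in each day 3 library.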
